A study of Mus musculus with 7 samples.

Results

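The injury-response transcription factors of sensory neurons are the proteins that switch on a growth programme in the cell body after its axon is cut or crushed. They were taken as the rows of the deposited table whose symbol was Atf3, Jun, Sox11, Klf4, Klf6, Klf7, Stat3, Smad1, Myc or Cebpd, and all 10 were found among 54309 genes. Klf4 lay below the filter on low values, which kept genes averaging 1 TPM or more, so 9 of the 10 were among the 14800 genes tested. TPM counts a gene's reads per unit of transcript length and scales every sample to the same sum, so levels of different genes can be set side by side.

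Both groups are labelled as male C57bl/6 mice of 6 to 8 weeks with an injured sciatic nerve, the large nerve of the hind limb. Ganglia were dissected at Zeitgeber time ZT20 in one group (4 samples) and at ZT8 in the other (3 samples), where ZT counts hours from lights on. These were lumbar L4-6 dorsal root ganglia, which hold the cell bodies of the sciatic sensory neurons, taken 72 h after injury, digested with enzymes and spun through albumin to enrich neurons. An interval of 72 h is whole days, so the hour of injury differed between the groups along with the hour of dissection. Their effects cannot be told apart. RNA libraries were made with a low-input kit. Uninjured ganglia were not analysed here, so every level below is a level in injured ganglia and none is a response to injury. The labels name neither the kind of nerve injury nor whether a sample holds 1 animal or several, so p-values measure the spread between these samples.

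After axon injury, kinase signals travel back to the neuronal cell body and phosphorylate Jun, and cytokines of the interleukin-6 family act through the shared receptor gp130 to activate Stat3. Bone morphogenetic proteins activate Smad1 in the same neurons. Atf3, Sox11, Klf6 and Myc are themselves made in larger amounts after injury, and together these factors turn on effector genes of axon growth such as Gap43 and Sprr1a. Klf6 and Klf7 are known to favour axon growth, and Klf4 is known to restrain it. Several members (Atf3, Jun, Klf4, Klf6, Myc, Cebpd) are also early-response genes that can rise when tissue is dissociated.

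RefSeq promoter sequences of build GRCm38.p6 were matched by symbol for 8 members (Atf3, Jun, Sox11, Klf4, Klf6, Klf7, Stat3 and Smad1). Each window ran from 250 bases before to 50 bases after the start of the gene, and both strands were searched. Stretches of 4 members are shown because they hold a match to TGACNTNA, letters bound by dimers of the ATF, CREB and Jun families, to which Atf3 and Jun themselves belong. TGACNTNA was found in the windows of Jun, Sox11, Klf6 and Atf3 and in 16.3% of all 32851 windows of this length. Capitals mark matches to TGACNTNA, to CCAAT (the letters of the CCAAT box) and to GGGCGG (the GC box), as read on the gene's strand.
Jun: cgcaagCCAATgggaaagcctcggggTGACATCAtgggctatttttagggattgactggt
Sox11: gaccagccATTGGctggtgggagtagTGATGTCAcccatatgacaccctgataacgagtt
Klf6: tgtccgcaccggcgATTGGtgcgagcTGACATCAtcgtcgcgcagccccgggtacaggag
Atf3: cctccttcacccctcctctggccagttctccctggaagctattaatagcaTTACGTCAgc
The Jun stretch is chr4:95052234-95052293 on the minus strand and the Sox11 stretch chr12:27342727-27342786 on the minus strand. The Klf6 stretch is chr13:5861344-5861403 on the plus strand and the Atf3 stretch chr1:191183334-191183393 on the minus strand. Jun, Sox11 and Klf6 held the same 8 letters, TGACATCA, on one strand or the other, each with a CCAAT match on one strand or the other within the stretch shown. CCAAT was found in 6 of the 8 members' windows and in 37.4% of all windows. The narrower TGACNTCA was found in these 3 and in 8.83% of all windows. The letters TGACNTNA were chosen after the sequences were seen, and a match is a description of letters and not of binding.

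For 2 of the members that rose at ZT20 (below), Klf7 and Stat3, the whole 250 bases before the start are shown. Neither held TGACNTNA.
Klf7: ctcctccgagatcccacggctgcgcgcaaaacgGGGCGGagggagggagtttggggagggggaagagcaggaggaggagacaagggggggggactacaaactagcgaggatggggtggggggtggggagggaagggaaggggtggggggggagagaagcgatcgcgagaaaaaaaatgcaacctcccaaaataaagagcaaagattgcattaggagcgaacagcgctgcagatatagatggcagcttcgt
Stat3: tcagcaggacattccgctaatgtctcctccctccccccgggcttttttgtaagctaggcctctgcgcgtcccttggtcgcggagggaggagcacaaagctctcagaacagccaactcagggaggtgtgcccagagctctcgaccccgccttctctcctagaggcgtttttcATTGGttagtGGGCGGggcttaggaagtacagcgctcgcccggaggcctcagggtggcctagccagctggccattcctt
The Klf7 sequence is chr1:64121390-64121639 and the Stat3 sequence chr11:100939541-100939790, both on the minus strand. GGGCGG was found in all 8 members' windows and in 35.7% of all windows. CACGTG, the E-box letters read by MYC with MAX and by the clock pair CLOCK with BMAL1, was found in the windows of Klf4 and Klf6 and in 7.15% of all windows. TGANTCA, the AP-1 letters, and TTCNNNGAA, the STAT letters, were found in 0 of the 8 and in 7.81% and 8.30% of all windows.

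Sequencing depth is unknown, because TPM keeps no depth. Genes above 0 TPM numbered 24192 to 25238 in the ZT20 samples and 22541, 18297 and 22973 in ZT8 replicates 1 to 3. Sex-linked transcripts went against the label male in part of the ZT20 group. The summed TPM of 4 Y-linked genes was 63.6, 33.1, 0.0162 and 0.00868 in ZT20 replicates 1 to 4 and 61.1 to 84.6 at ZT8, and Xist reached 1.08, 2.21 and 2.30 TPM in ZT20 replicates 2, 3 and 4. ZT20 libraries are numbered and ZT8 libraries lettered in the labels; if this marks a batch, its effect and that of time cannot be told apart. All 12 sensory neuron markers were measured well above 0, from 37.1 TPM for the lowest value of Scn9a to 6747 TPM for the highest of Nefl, so the defining markers of the labelled neuron-enriched ganglia were present.

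Klf7, Myc and Stat3, 3 of the 9 tested members, were higher at ZT20, by 1.59-, 1.70- and 1.52-fold on the log2(TPM + 1) scale. The other 6, Atf3 and Jun among them, did not pass, and 0 of the 9 were lower. The threshold was an adjusted p under 0.05 (limma on log2(TPM + 1), Benjamini-Hochberg over all 14800 genes). It was passed by 16.4% of all tested genes, and by 12.8% higher and 3.61% lower at ZT20, so 3 of 9 has to be read against many changes elsewhere. For 6 of the 9 members the ZT20 and ZT8 ranges were separate, against 33.2% of all tested genes: 5 with ZT20 higher (24.5% of all) and 1 with ZT20 lower (8.72%). The difference was positive in 6 of 9 members and in 66.4% of all tested genes. The median log2 difference was 0.38 over the 9 members and 0.23 over all tested genes. That shift of all genes fell to 0.019 under median-ratio scaling and 0.0046 under quantile normalization. Under median-ratio scaling the genes past the threshold were 1088 higher and 1254 lower, and under quantile normalization 1023 and 814, against 1899 and 534 without either.

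**Figure D1:**
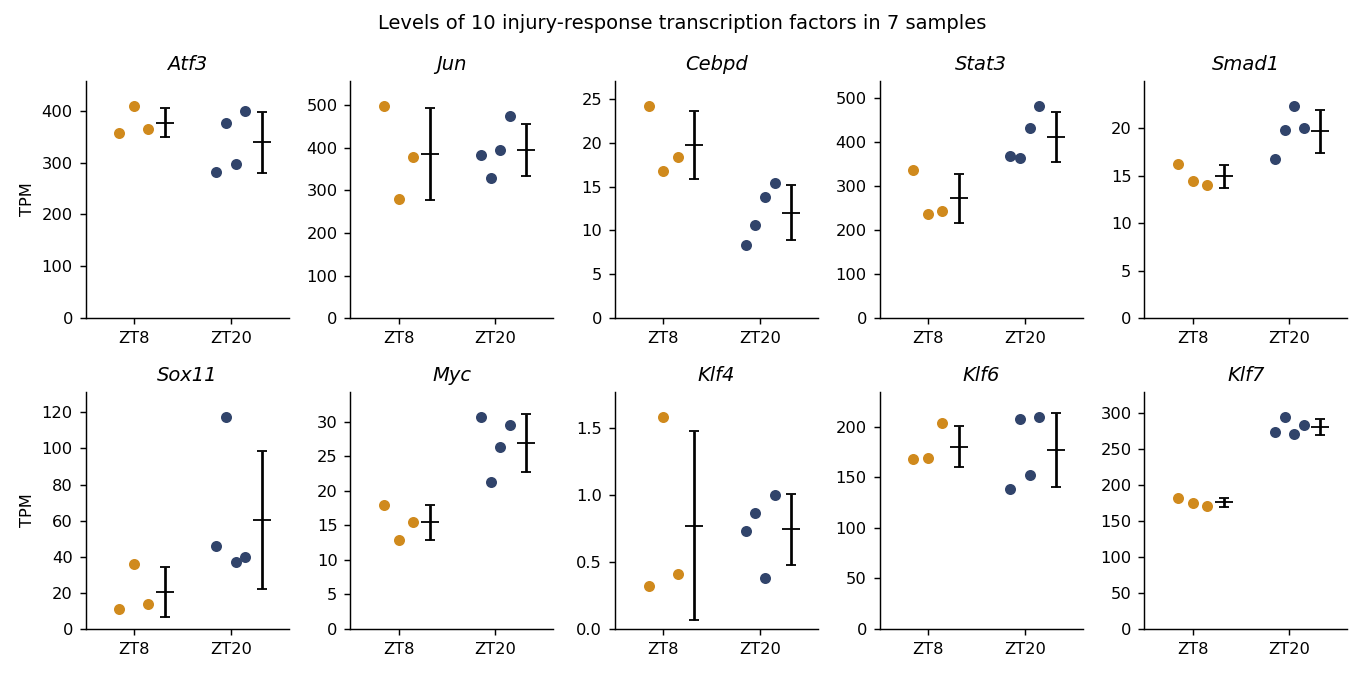
TPM (y axis, from 0, a separate scale per gene) of the 10 members in ZT8 samples (3, orange) and ZT20 samples (4, blue), with the mean and SD as a bar beside each group. The groups are separate for Klf7, Stat3, Myc, Smad1, Sox11 and Cebpd and overlap for Atf3, Jun, Klf4 and Klf6.

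The members were far from equal in abundance, and their order was much the same in every sample. Jun, Stat3 and Atf3 held ranks 1 to 3 in all 7 samples, with means over all samples of 391, 352 and 355 TPM, and their order among themselves changed from sample to sample. Klf7 and Klf6 followed at ranks 4 and 5, with Klf7 above Klf6 in every sample except ZT8 replicate 3. Sox11, Myc, Smad1 and Cebpd shared ranks 6 to 9, with means of 43.2, 22.01, 17.6 and 15.3 TPM. Within that group Sox11 was at rank 6 in all 4 ZT20 samples and at ranks 9, 6 and 9 in ZT8 replicates 1 to 3. Cebpd was at rank 9 in all 4 ZT20 samples and at ranks 6, 7 and 6 at ZT8, so it stood above Sox11 in ZT8 replicates 1 and 3 and below it in the other 5 samples. Klf4 was last everywhere. Jun was above 96.9% of the tested genes in mean level and Cebpd above 54.0%.

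Per-sample values below run from replicate 1 upwards in each group. Atf3, a bZIP factor that is hardly made in uninjured sensory neurons, was at 281, 377, 297 and 400.1 TPM at ZT20 and at 357, 408 and 365 TPM at ZT8. The ranges overlapped, with ZT20 replicates 1 and 3 below every other sample. The log2 difference, ZT20 minus ZT8, was −0.17 with a 95% interval from −0.50 to 0.17 (limma adjusted p = 0.452), so a change in level beyond 1.13-fold up or 0.705-fold down lay outside the interval. Its sign turned after a correction for transcript length (0.041). Under median-ratio scaling the log2 difference was −0.42 (SE 0.16, limma adjusted p = 0.119), so the bound above holds only for the fit without that scaling. Jun, the AP-1 subunit phosphorylated by the injury kinases, was at 383, 328, 394 and 476 TPM at ZT20 and at 497, 280 and 379 TPM at ZT8. The ZT8 samples held both the highest and the lowest value, and the log2 difference of 0.062 (95% interval −0.40 to 0.52, limma adjusted p = 0.849) turned to −0.19 under median-ratio scaling. Transcript level says nothing of the phosphorylation through which Jun acts.

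Cebpd, a C/EBP factor that cytokines induce in many cell types, lay lower at ZT20 without passing the threshold. It was at 8.31, 10.7, 13.8 and 15.4 TPM at ZT20 and at 24.1, 16.8 and 18.4 TPM at ZT8, or 12.04 ± 3.16 (SD, n = 4) and 19.8 ± 3.86 (SD, n = 3). Every ZT20 sample was below every ZT8 sample. The log2 difference of −0.69 (95% interval −1.23 to −0.15) did not pass over all genes (limma adjusted p = 0.0775), and passed at −0.92 under median-ratio scaling (limma adjusted p = 0.0242) and at −0.97 under quantile normalization (limma adjusted p = 0.0228).

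Stat3, which carries the gp130 signal to the nucleus, rose at ZT20. It was at 369, 363, 433 and 481 TPM at ZT20 and at 336, 237 and 244 TPM at ZT8, or 411 ± 56.1 (SD, n = 4) and 272 ± 55.3 (SD, n = 3). No ZT20 sample was as low as the highest ZT8 sample. The log2 difference was 0.60 (SE 0.16, 95% interval 0.24 to 0.97, limma adjusted p = 0.0376). The call was lost under median-ratio scaling (0.35, limma adjusted p = 0.109), after the correction for transcript length (0.27, limma adjusted p = 0.246), with no filter (0.60, limma adjusted p = 0.0939), with no intensity trend (0.60, limma adjusted p = 0.0706), and without ZT20 replicate 1, 3 or 4 or ZT8 replicate 2 or 3 (0.51 to 0.65). The longest annotated Stat3 transcript has 6042 bases.

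Smad1, the effector of bone morphogenetic proteins, was at 16.8, 19.8, 22.3 and 19.98 TPM at ZT20 and at 16.2, 14.4 and 14.1 TPM at ZT8. The lowest ZT20 sample lay just above the highest ZT8 sample. The log2 difference of 0.38 (SE 0.16, 95% interval 0.017 to 0.73) did not pass over all genes (limma adjusted p = 0.130), and it was 0.14 and 0.11 under median-ratio scaling and quantile normalization.

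Sox11, a SOX-family factor of developing and regenerating neurons, showed the widest difference of the 9 and also the widest spread. It was at 46.2, 117, 37.2 and 40.0 TPM at ZT20 and at 11.3, 36.2 and 13.8 TPM at ZT8. Replicate 2 was the highest sample in both groups, and ZT8 replicate 2 came within about 1 TPM of the lowest ZT20 sample. In summed neuron markers replicate 2 was the lowest sample of each group, at 18029 TPM at ZT20 and 13923 TPM at ZT8. Whether this bears on Sox11 was not tested. The spread within groups, an SD of 0.80 on the log2 scale, was larger than that of 93.9% of tested genes. The log2 difference of 1.52 (SE 0.48, 95% interval 0.43 to 2.62) did not pass over all genes (limma adjusted p = 0.0615). It was 1.15 (limma adjusted p = 0.0934) without ZT20 replicate 2, and 2.01 (limma adjusted p = 0.0198), past the threshold, without ZT8 replicate 2.

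Sox11 was the only member whose log2 values had an SD of at least 0.5 over the 7 samples, so its likest genes were looked up among the 9727 genes that averaged 5 TPM or more and whose symbol was not a provisional one (Gm followed by digits, or ending in Rik). Likeness was the root-mean-square difference between log2 profiles centred over the 7 samples. The 3 nearest genes were Micu3 (0.264), Pdp2 (0.269) and Bend4 (0.270 log2 units). Micu3, a regulator of mitochondrial calcium uptake, was at 140, 227, 112 and 94.99 TPM at ZT20 and at 34.5, 69.3 and 32.5 TPM at ZT8. As with Sox11, replicate 2 was the highest sample of each group in all 3.

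Myc, a growth-promoting bHLH factor, rose at ZT20. It was at 30.7, 21.2, 26.4 and 29.6 TPM at ZT20 and at 18.0, 12.8 and 15.4 TPM at ZT8, or 26.9 ± 4.23 (SD, n = 4) and 15.4 ± 2.56 (SD, n = 3). The lowest ZT20 sample, replicate 2, was above the highest ZT8 sample, replicate 1. The log2 difference was 0.77 (SE 0.19, 95% interval 0.34 to 1.19, limma adjusted p = 0.0275). Of the 3 members called it alone passed after the correction for transcript length (0.91, limma adjusted p = 0.0228). It missed the threshold under median-ratio scaling (0.53, limma adjusted p = 0.0574) and quantile normalization (0.50, limma adjusted p = 0.0750), with no filter (0.77, limma adjusted p = 0.0581), and without ZT20 replicate 1, 3 or 4 or ZT8 replicate 3, where the difference was 0.70, 0.77, 0.72 and 0.77.

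Of the Krüppel-like factors, zinc-finger proteins that share a DNA-binding domain and differ in their effect on axon growth, Klf7 rose and Klf6 did not pass. Klf7 was at 274, 294, 271 and 284 TPM at ZT20 and at 182, 175 and 171 TPM at ZT8, or 281 ± 10.7 (SD, n = 4) and 176 ± 5.82 (SD, n = 3). The groups were far apart and each was tight. The spread within groups was an SD of 0.052 on the log2 scale, and only 0.189% of the tested genes had a smaller one. The log2 difference was 0.67 (SE 0.096, 95% interval 0.45 to 0.89, limma adjusted p = 0.00577), a 1.59-fold rise. It passed with each of the 7 samples left out in turn (0.65 to 0.70) and under median-ratio scaling (0.42, limma adjusted p = 0.0348), and was 0.28 (limma adjusted p = 0.0807) after the correction for transcript length. The longest annotated Klf7 transcript has 7662 bases.

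Klf6 was at 139, 208, 152 and 209 TPM at ZT20 and at 168, 169 and 203 TPM at ZT8. The ZT20 samples fell on both sides of the ZT8 samples, and the log2 difference was −0.044 (95% interval −0.44 to 0.36, limma adjusted p = 0.878). Klf4 was at 0.731, 0.870, 0.379 and 1.00 TPM at ZT20 and at 0.320, 1.58 and 0.412 TPM at ZT8, too low for the filter and overlapping. Klf4 was below Klf6 in TPM in every sample.

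**Figure D2:**
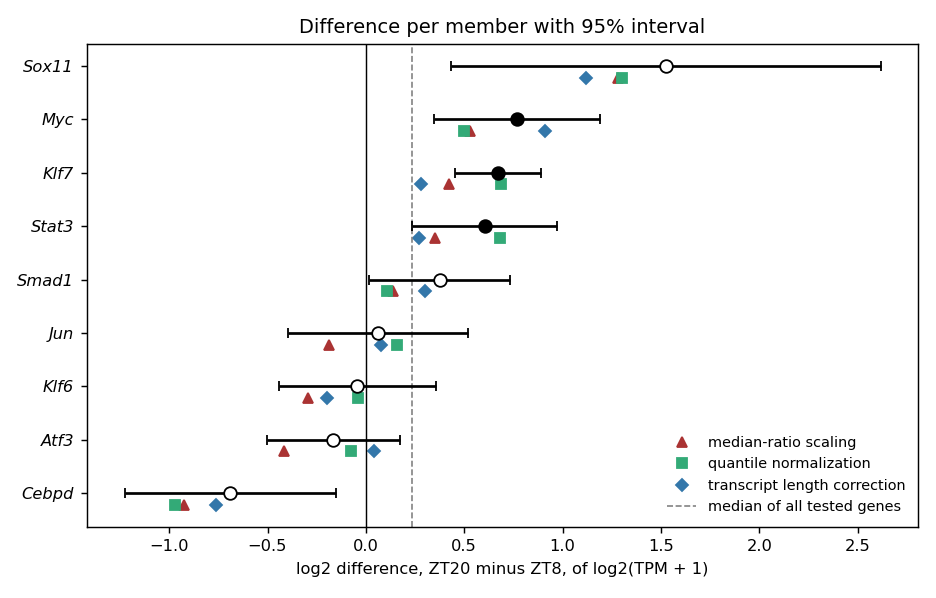
Log2 difference (x axis, ZT20 minus ZT8) of the 9 tested members with the 95% interval as a bar; filled circles passed an adjusted p under 0.05. Coloured symbols give the difference with median-ratio scaling, with quantile normalization and with transcript length corrected, and the dashed line is the median of all tested genes at 0.23.

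A ratio of levels within a sample does not depend on a scaling factor between samples, but it can move with transcript length. It shows unequal change of a pair and not which gene changed, and the pairs were chosen after the values were seen. The Klf7 to Klf6 ratio was 1.97, 1.42, 1.78 and 1.36 at ZT20 and 1.09, 1.03 and 0.838 at ZT8. The Stat3 to Jun ratio was 0.963 to 1.11 at ZT20 and 0.643 to 0.844 at ZT8. The Myc to Max ratio, of Myc to the partner it needs to bind DNA, was 0.420 to 0.499 at ZT20 and 0.173 to 0.295 at ZT8. In each of these 3 pairs every ZT20 sample was above every ZT8 sample. Of 8 pairs computed, 6 were separate in this way and 2 overlapped, Sox11 to Sox4 and Jun to Atf3 (0.871 to 1.36 at ZT20 and 0.687 to 1.39 at ZT8). Each of the 6 holds a gene whose own ranges were separate (Klf7, Stat3, Myc or Junb), as were those of 33.2% of all tested genes. The share of separate ratios over other pairs of genes was not computed. With transcript length corrected, the log2 difference was 0.27 for Stat3 and 0.076 for Jun, and 0.28 for Klf7 and −0.20 for Klf6, so the gap was narrower in both pairs.

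**Figure D3:**
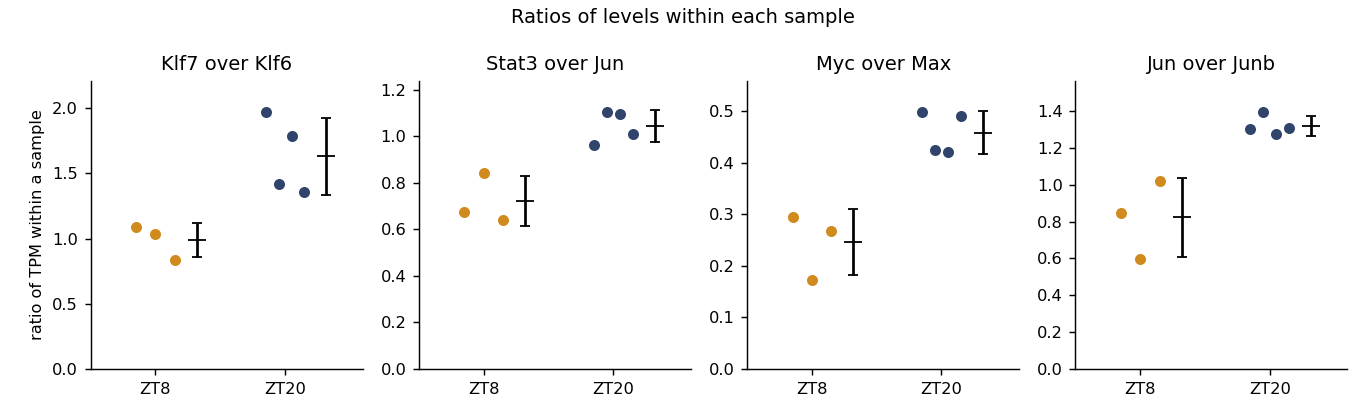
Ratio of TPM within a sample (y axis, from 0) for 4 of the 8 pairs of genes, in ZT8 samples (3, orange) and ZT20 samples (4, blue), with mean and SD. The groups are separate in these 4 pairs, for example 1.27 to 1.40 at ZT20 and 0.598 to 1.02 at ZT8 for Jun over Junb.

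The genes around the members in their pathways formed 8 lists of 107 different genes, of which 93 were tested. At ZT20, 27 were higher and 2 lower (31.2%, against 16.4% of all tested genes), with a median log2 difference of 0.36 against 0.23. Under median-ratio scaling 11 were higher and 7 lower, and after the correction for transcript length 14 were higher and 2 lower. Of the 29 genes, 13 passed again with median-ratio scaling and 12 with transcript length corrected, in the same direction. With the marker covariate described below 4 of the 29 passed (Bmpr2, Cacna2d1, Klf13 and Lifr). Every called gene of the DLK and JNK list missed the threshold there, at log2 differences from 0.50 for Mapk10 to 1.19 for Mapk9. The difference of Mapk9 was larger than without the covariate (0.74), and those of the other called genes of that list were smaller. The median over the 93 genes was 0.53 in that fit. The counts of each list below are to be read against 12.8% of all tested genes higher and 3.61% lower.

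Among AP-1, ATF and C/EBP relatives, 5 of 15 tested genes rose and 1 fell; with median-ratio scaling 2 were higher and 2 lower. Cebpg, a C/EBP protein without an activation domain, rose from 4.87 ± 1.57 TPM (SD, n = 3) at ZT8 to 17.9 ± 10.8 TPM (SD, n = 4) at ZT20, a log2 difference of 1.56 (limma adjusted p = 0.0309). Atf6, a sensor of unfolded protein in the endoplasmic reticulum, differed by 1.03 (limma adjusted p = 0.0383) and Creb1, the cAMP-responsive factor, by 1.01 (limma adjusted p = 0.0100). Atf5 and Atf7 also rose. Cebpg, Atf6 and Atf7 missed the threshold with both scalings and with transcript length corrected (limma adjusted p from 0.0603 for Atf6 to 0.167 for Atf7), while Creb1 and Atf5 passed in all 3. Junb, a Jun relative and early-response gene, was the one that fell: it was at 294, 235, 309 and 363 TPM at ZT20 and 585, 469 and 372 TPM at ZT8 (log2 difference −0.65, limma adjusted p = 0.0485), and missed the threshold under quantile normalization (−0.57, limma adjusted p = 0.0913) and with transcript length corrected (−0.42, limma adjusted p = 0.208). Fos, the usual partner of Jun, was at 111 to 193 TPM and 179 to 235 TPM and did not pass (−0.56, limma adjusted p = 0.0800).

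Of 10 genes of the DLK and JNK pathway that feeds Jun, 6 rose, 0 fell and 4 did not pass, where 12.8% of all tested genes were higher and 3.61% lower. The scaffold Mapk8ip1 (JIP1) was at 169, 94.98, 172 and 174 TPM at ZT20 and at 73.7, 34.1 and 54.3 TPM at ZT8, a log2 difference of 1.51 (SE 0.30, limma adjusted p = 0.0145). The groups did not overlap, and replicate 2 was the lowest sample of each. Map3k13 (LZK) differed by 0.95 (limma adjusted p = 0.0394) and the transport scaffold Mapk8ip3 (JIP3) by 0.89 (limma adjusted p = 0.0218). Map3k12 (DLK), the kinase that senses axon injury, Mapk9 and Mapk10 (JNK2 and JNK3) rose as well. Mapk8 (JNK1) was at 26.6 to 29.1 TPM at ZT20 and 25.3 to 31.5 TPM at ZT8. With either scaling 3 of the 10 passed, Mapk8ip1, Mapk8ip3 and Mapk10. After the length correction 1 of the 10 passed, Mapk8ip1 at 1.51 (limma adjusted p = 0.0166).

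Around Stat3, 4 of 14 tested genes rose (28.6%), 0 fell and 10 did not pass, and those that rose were 3 receptor chains and a kinase. Lifr, the receptor for leukaemia inhibitory factor, was at 347, 598, 340 and 379 TPM at ZT20 and at 139, 266 and 102 TPM at ZT8, a log2 difference of 1.37 (SE 0.32, limma adjusted p = 0.0259). Every ZT20 sample was above every ZT8 sample. Osmr, the oncostatin M receptor, differed by 1.02 (limma adjusted p = 0.0450) and Il6st, which encodes gp130, by 0.97 (limma adjusted p = 0.0257). The kinase Jak1 rose as well, and of the 4 it alone also passed both with median-ratio scaling (0.50, limma adjusted p = 0.0305) and with transcript length corrected (0.51, limma adjusted p = 0.0445). Socs3, the feedback inhibitor that Stat3 induces, was at 53.9, 41.0, 69.6 and 74.3 TPM at ZT20 and at 99.7, 71.0 and 63.8 TPM at ZT8, and did not pass (−0.39, limma adjusted p = 0.266). Of both scalings and the length correction, Lifr and Il6st passed under quantile normalization and Osmr in none. The list had 1 gene higher with median-ratio scaling and 1 with transcript length corrected. With the marker covariate Lifr passed (2.42, limma adjusted p = 0.0140). Il6st, Osmr and Jak1 did not, at log2 differences of 1.37, 1.17 and 0.54 (limma adjusted p = 0.0957, 0.269 and 0.289). The differences of Il6st and Osmr were larger than without the covariate, and that of Jak1 was smaller. The ligands Lif and Clcf1 were below the filter.

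Around Smad1, 4 of 10 tested genes rose, 0 fell and 6 did not pass; with median-ratio scaling 2 were higher and 1 lower. Bmpr2, the type II receptor of bone morphogenetic proteins, was at 15.2, 19.5, 19.3 and 20.2 TPM at ZT20 and at 4.19, 7.71 and 4.78 TPM at ZT8, a log2 difference of 1.61 (SE 0.22, limma adjusted p = 0.00524). It passed under both scalings and after the length correction (1.14, limma adjusted p = 0.0110). The type I receptor Bmpr1b differed by 1.01 (limma adjusted p = 0.0471), with ZT8 replicate 2 listed at 0, and Smad4, the partner of Smad1, by 0.96 (limma adjusted p = 0.0346). Bmpr1a rose too. Bmpr1b missed the threshold in all 3 alternatives (limma adjusted p = 0.0715, 0.0935 and 0.111), Smad4 under both scalings (0.0652 and 0.1004), and Bmpr1a under quantile normalization and the length correction (0.0758 and 0.0697). The target genes Id1 and Id3 did not pass (−0.33 and −0.37, limma adjusted p = 0.377 and 0.114), nor did Id2 (0.73, limma adjusted p = 0.0513).

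In the MYC network 1 of 9 tested genes rose, Mycn, a MYC paralogue, with a log2 difference of 1.03 (limma adjusted p = 0.0336), and 8 did not pass, a share of 11.1% beside 16.4% of all tested genes. Mycn missed the threshold under median-ratio scaling and quantile normalization (limma adjusted p = 0.0606 and 0.113), and with either scaling the list's calls turned to 0 higher and 2 lower. Max was at 50.0 to 62.7 TPM at ZT20 and 57.6 to 74.1 TPM at ZT8. Of 10 other Krüppel-like factors, 3 rose and 1 fell; with either scaling 1 was higher and 1 lower. Klf13 was at 74.1, 124, 64.3 and 65.0 TPM at ZT20 and at 21.3, 34.8 and 15.2 TPM at ZT8 (log2 difference 1.76, SE 0.31, limma adjusted p = 0.0103), and Klf16 and Klf12 differed by 0.86 and 0.85 (limma adjusted p = 0.0354 and 0.0408). Klf15, a factor induced by glucocorticoids, was at 3.11, 5.70, 5.64 and 7.42 TPM at ZT20 and at 15.1, 18.9 and 11.6 TPM at ZT8 (−1.35, SE 0.28, limma adjusted p = 0.0170). Klf13 and Klf15 passed in the same directions under both scalings and after the length correction. Klf12 missed the threshold in all 3 (limma adjusted p = 0.0997, 0.176 and 0.153) and Klf16 under both scalings (0.0685 and 0.116). Klf9 was at 19.7 to 22.4 TPM at ZT20 and 11.6 to 28.2 TPM at ZT8.

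Of 6 tested SOX genes 1 rose, Sox4, a SoxC relative of Sox11, at 5.58, 9.36, 6.96 and 6.62 TPM at ZT20 and 2.57, 3.01 and 2.69 TPM at ZT8 (log2 difference 1.10, SE 0.22, limma adjusted p = 0.0157). The share of 16.7% stands beside 16.4% of all tested genes. Sox4 missed the threshold under quantile normalization (limma adjusted p = 0.0551). The Sox11 to Sox4 ratio was 5.35 to 12.5 at ZT20 and 4.38 to 12.02 at ZT8 and overlapped. Among 19 tested effector genes that neurons make after injury, 3 rose, 0 fell and 16 did not pass, a share of 15.8% beside the 16.4% of all tested genes. Adcyap1, the neuropeptide PACAP, was at 154, 78.4, 88.5 and 77.4 TPM at ZT20 and at 35.3, 23.4 and 27.7 TPM at ZT8 (log2 difference 1.71, SE 0.26, limma adjusted p = 0.00673). The calcium channel subunit Cacna2d1 differed by 1.29 (limma adjusted p = 0.0210) and the adhesion protein Flrt3 by 0.73 (limma adjusted p = 0.0271). Both missed the threshold under median-ratio scaling (limma adjusted p = 0.0565 and 0.107) and after the length correction (0.0671 and 0.0600), while Adcyap1 passed in all 3 alternatives. With median-ratio scaling 1 of the 19 was higher and 1 lower. Gap43, a growth cone protein, was at 1315 to 2163 TPM at ZT20 and 1330 to 2247 TPM at ZT8 and did not pass (−0.015, limma adjusted p = 0.967). Sprr1a, a small protein of injured neurons, was at 984 to 1329 TPM and 744 to 1114 TPM, a log2 difference of 0.38 that missed the threshold (limma adjusted p = 0.135).

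**Figure D4:**
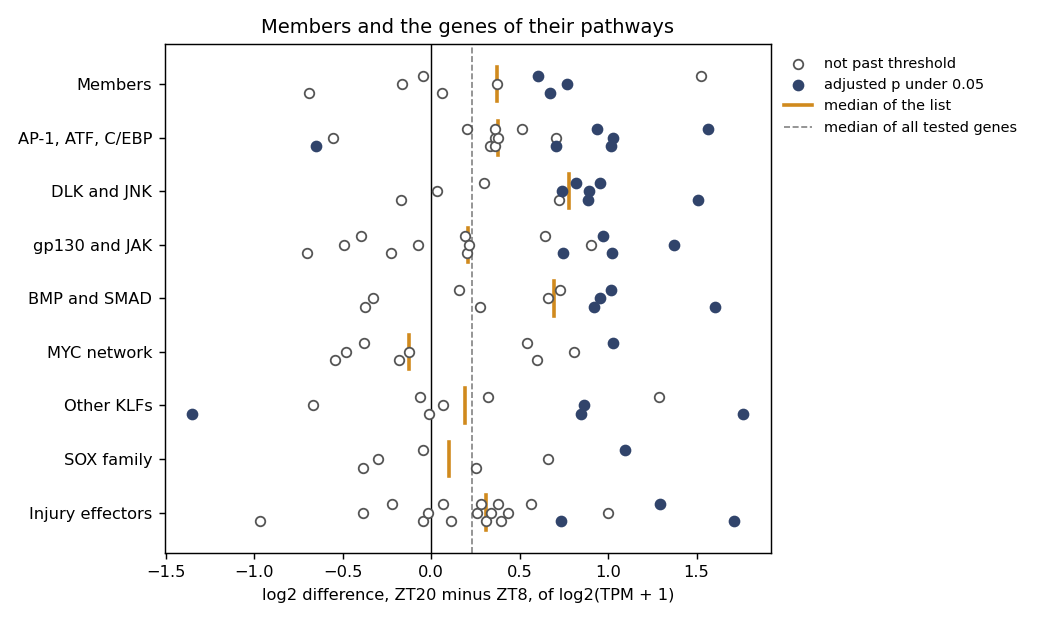
Log2 difference (x axis, ZT20 minus ZT8) of the tested members and of the tested genes of 8 pathway lists (rows), one circle per gene, filled where the adjusted p was under 0.05, with the list's median in orange. The DLK and JNK list and the BMP and SMAD list have medians of 0.78 and 0.70, to the right of the dashed median of all tested genes, and the MYC network has −0.13.

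Markers of other cell types moved between the groups, and in bulk samples fewer cells of a type and less RNA per cell cannot be told apart. The summed TPM of 8 satellite glia markers was 7494 to 9160 at ZT20 and 12776 to 15477 at ZT8, with 3 of 8 lower at ZT20, Apoe among them, and none of the 8 was at 0 in any sample. Apoe alone was 6261 to 7615 TPM and 10623 to 13557 TPM and made up most of the sum. The differences of 3 of the 8 were positive without passing, at 0.96 for Cadm2 (limma adjusted p = 0.0882), 0.38 for Cdh19 (0.283) and 0.21 for Kcnj10 (0.596). The sum of 12 neuron markers was 18029 to 23159 TPM at ZT20 and 13923 to 21548 TPM at ZT8, with 3 of 12 higher (Nefh, Scn9a and Scn10a). These and the other marker counts stand beside 12.8% of all tested genes higher and 3.61% lower. Macrophage markers summed to 806 to 1166 TPM at ZT20 and to 2789, 975 and 1020 TPM in ZT8 replicates 1 to 3, with 1 of 10 lower (C1qa). Schwann cell markers summed to 1139 to 1284 TPM at ZT20 and 917 to 1325 TPM at ZT8, with 0 of 8 past the threshold and 1 at an unadjusted p under 0.05. Fibroblast and endothelial markers summed to 72.2 to 103 TPM and 74.6 to 183 TPM. Plasma cell markers summed to 267 to 485 TPM and 496 to 933 TPM, with 1 of 4 tested lower (Mzb1).

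Of 13 tested immediate early genes, which can rise when tissue is dissociated, 0 were higher and 2 lower at ZT20, Junb and Ier2. This share of 15.4% stands beside the 3.61% of all tested genes that were lower and the 16.4% called in either direction. The number lower was 4 under median-ratio scaling, 1 under quantile normalization and 0 after the length correction. The early genes summed to 962, 839, 1002 and 1283 TPM in ZT20 replicates 1 to 4 and to 1629, 1219 and 1225 TPM in ZT8 replicates 1 to 3. ZT8 replicate 1 was highest in Cebpd and in early genes and ZT8 replicate 3 in satellite glia markers. ZT20 replicate 4 was the highest ZT20 sample in all 3, and the lowest ZT20 sample was replicate 1 in Cebpd, replicate 2 in early genes and replicate 3 in satellite glia markers. The part of early genes in the difference of Cebpd was not tested. That of satellite glia was not tested beyond the covariate fit that follows. With a score of neuron minus satellite glia markers as a covariate, the log2 differences were 0.75 for Klf7, 0.61 for Stat3, 0.48 for Myc, −0.59 for Cebpd and 2.73 for Sox11, and 0 of 9 members passed (limma adjusted p = 0.0542 for Klf7 and 0.0699 for Sox11). The SE of each of the 9 was wider than without the covariate, at 0.15 against 0.096 for Klf7. The satellite glia sum separated the groups, and how far the score follows the groups was not tested. A call lost with wider SEs does not show that a difference went away. At an unadjusted p under 0.05 the number in that fit was 2 of 9 members and 2547 of 14800 genes.

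**Figure D5:**
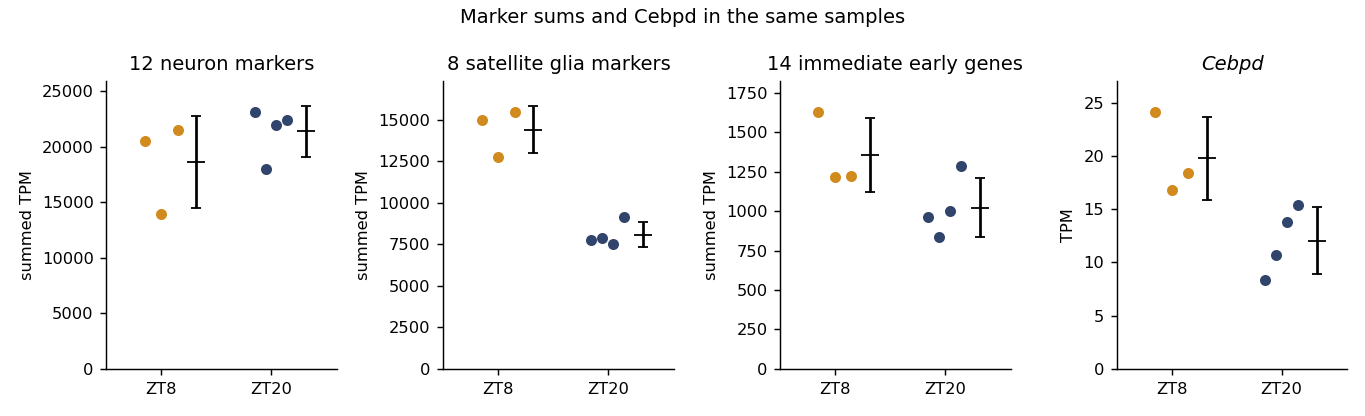
Summed TPM (y axis, from 0) of 12 neuron markers, 8 satellite glia markers and 14 immediate early genes, and TPM of Cebpd, in ZT8 samples (3, orange) and ZT20 samples (4, blue), with mean and SD. The satellite glia sum and Cebpd separate the groups, with ZT20 lower, and the other sums overlap.

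Results were also read without the ZT20 libraries whose sex-linked transcripts went against their label. Without ZT20 replicates 3 and 4 the log2 differences were 0.69 for Klf7, 0.70 for Myc, 0.45 for Stat3, 1.98 for Sox11 and −0.98 for Cebpd. With ZT20 replicate 1 alone against the 3 ZT8 samples they were 0.64, 0.96, 0.46, 1.32 and −1.14, the lone sample being assumed to vary like the ZT8 group. In both fits limma called 0 of 9 members and 0 genes in all, with 4 and 3 of the 9 members at an unadjusted p under 0.05, beside 2378 of 14687 and 1155 of 14584 genes.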

How the data were processed

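RNA was sequenced from 7 samples, 4 at ZT20 and 3 at ZT8. The deposited table gave TPM for 54309 genes. FastQC 0.11.9, Trim Galore 0.6.6, Salmon 1.6.0, DESeq2 1.34.0 and build GRCm39 are named in the submitters' processing notes, without the role of each. TPM keeps no read counts, so depth and counting error are unknown and no count model was used. All 7 sample columns were used, and no column was left over.

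The values were tested as log2(TPM + 1) with limma 3.58.1 (R 4.3.3, eBayes with an intensity trend) over the 14800 genes averaging 1 TPM or more, ZT20 minus ZT8, without covariates, and p-values were adjusted over all of them (Benjamini-Hochberg). A fold on this scale understates the change of low genes. A change in the summed level of a few abundant genes moves every TPM in a sample, which the alternative scalings address in part. For the length correction a loess curve (span 0.3) of each sample on log2 transcript length was removed, with lengths for 99.6% of tested genes matched by gene ID. The length used was that of the gene's longest annotated transcript, which need not be the transcript expressed. The script was tested on simulated data.

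The members, gene lists and tests were chosen with earlier results of these data known. The text names every member and, from each related list, at most 3 called genes with the largest difference in each direction; other called genes are listed by name, and genes named without passing were chosen after their values were seen. The alternatives tried were the pseudocount, the filter, 2 scalings, removal of mitochondrial transcripts, the length correction, a replicate block, no intensity trend, sample weights, a marker covariate, an adjusted p of 0.10 and left-out samples. RefSeq promoters are of GRCm38.p6; Myc and Cebpd had no entry.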

Additional observations from a re-analysis of the deposited data

Results flagged for a closer look

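In 7 of 56 genes and groups examined, 1 of the 4 ZT20 samples lay far from the other 3. The measure is the gap to the nearest sample as a share of the group's range, set against Dixon's 95% critical value, which chance passes in about 1 in 20 groups. Among the members this was Sox11, with ZT20 replicate 2 high at 117 TPM (0.888). ZT20 replicate 2 also stood apart for Lifr (high, 0.849), Klf13 (high, 0.835) and Mapk8ip1 (low, 0.938). ZT20 replicate 1 stood apart for Adcyap1 (high, 0.856) and Bmpr1b (low, 0.886), and ZT20 replicate 4 for Creb1 (high, 0.893). The groups at ZT8 had 3 samples each and were not examined in this way.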

How the results depend on the processing

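Of 20 alternatives, Klf7 passed in 16, Myc in 9, Stat3 in 7, Sox11 in 3, Cebpd in 2 and Atf3, Jun, Klf6 and Smad1 in 0; the direction of Klf7, Myc, Stat3, Sox11, Smad1 and Cebpd held in all 20. The log2 difference of Jun turned negative under median-ratio scaling (−0.19), the replicate block (−0.031), sample weights (−0.084) and the marker covariate (−0.18), and without ZT20 replicates 3 and 4 (−0.082), ZT20 replicate 4 (−0.031) or ZT8 replicate 2 (−0.15); over single samples left out it ran from −0.15 to 0.26. That of Klf6 turned positive with the covariate (0.13) and without ZT20 replicate 1 (0.064), ZT20 replicate 3 (0.022) or ZT8 replicate 3 (0.047), from −0.13 to 0.064 over single samples left out, and that of Atf3 with the covariate (0.17) and the length correction (0.041).

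The number of genes past the threshold, 2433, became 1178 without a filter, 1174 with the replicate block, 3899 with sample weights, 236 with the covariate, 1543 with the length correction and 4079 at an adjusted p of 0.10. The 3 members became 1 without a filter, 0 with the covariate, 1 with the length correction and 5 at an adjusted p of 0.10. The 29 related genes became 10 without a filter, 18 under median-ratio scaling, 16 under quantile normalization, 13 with the replicate block, 4 with the covariate and 16 with the length correction. Without ZT20 replicates 3 and 4, and without ZT20 replicates 2, 3 and 4, limma called 0 genes (2378 and 1155 at an unadjusted p under 0.05), 0 members (4 and 3) and 0 related genes (29 and 13). With each sample left out in turn, 723 to 3047 genes, 1 to 3 members and 4 to 33 related genes passed; without ZT20 replicate 3 the counts were 723, 1 and 4, without ZT20 replicate 1 1132, 1 and 13, without ZT20 replicate 4 855, 1 and 9, and without ZT8 replicate 3 1665, 1 and 14. Without ZT20 replicate 2, 19 related genes passed. Without ZT8 replicate 2 the counts were 3047 genes, 3 members and 33 related genes.

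Groups share replicate numbers in the labels, but not every pair of the same number deviated together (r of −0.014, 0.153 and 0.083). The replicate 2 pair had the highest r of the 12 pairs between groups, and ZT20 replicates 1 and 3 correlated best with another number. With the replicate block 2 members passed, Klf7 (0.67) and Sox11 (1.66, limma adjusted p = 0.0140). Stat3 (0.53, limma adjusted p = 0.0928) and Myc (0.72, limma adjusted p = 0.0573) did not. The fits that leave out samples have fewer samples, and the cause of the other changes was not tested. With 3 samples at ZT8 and no counts, the precision of low genes such as Klf4 cannot be given.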
